A study of Homo sapiens with 11 samples.

Results

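The 37 genes described here act at the G1/S transition and in DNA replication, and were chosen by symbol: the MCM2 to MCM7 helicase subunits and MCM10, the licensing factors, the clamp and its loader, polymerase subunits, enzymes of nucleotide supply, E-type cyclins, E2F factors and several replication-coupled chromatin and repair genes. The 37, and the other gene lists used below, were chosen with earlier results of these data known. Their shares set beside those of all genes are therefore a description. All 37 of the 37 were measured, among 19775 genes on the array, by 71 probe sets, the groups of short oligonucleotides that each read one transcript region. A gene's value is the mean over its probe sets that carry only its symbol. Of the 37, 15 had 1 probe set and 22 had several.

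The cells were MDA-MB-231, an established human breast cancer line of the triple-negative type. The 11 arrays were Affymetrix HG-U133 Plus 2.0. All cells spent 4 h in medium with charcoal-stripped serum, which is depleted of steroids, and a further 3 h with or without treatment. There were 2 arrays of untreated control and 2 of E2-BSA (1 µM), estradiol coupled to bovine serum albumin. There was 1 array each of ethanol (0.1%), free estradiol (1 µM), ICI (10 µM, an antagonist known here by that abbreviation only), G15 (10 µM, a blocker of the estrogen receptor GPER), BSA (1 µM, the carrier protein alone), and of the combinations of E2-BSA with either antagonist. Nothing in the labels said that the duplicates were separate cultures, and the small number of arrays limits the precision. The p-values measure only a spread among these arrays, that of the E2-BSA difference over 4 pairs of arrays.

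Replication is prepared in G1, when the origin recognition complex, CDC6 and CDT1 load the MCM helicase onto origins; this is called licensing. On entry into S phase, CDC45, the GINS complex and MCM10 switch the helicase on, and polymerases begin copying with the clamp PCNA, which the RFC complex loads. Many of these genes are transcribed late in G1 by E2F factors, which cyclin E with its kinase releases from the retinoblastoma protein. Their RNAs are most abundant around S phase. In these bulk samples, fewer cells in late G1 and S phase and less RNA per cell cannot be told apart.

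Promoter sequences are shown first, because the E2F motif is what many of these genes share apart from their function. RefSeq promoters (GRCh38.p14, 250 bases before to 50 after the gene start) were matched by symbol for 34 of the 37. An E2F motif, any of the 4 forms TTTCGCGC, TTTGGCGC, TTTCCCGC and TTTGCCGC on either strand, was in at least 1 promoter of 19 of those 34 (55.9%). It was in 3.99% of all 27305 genes in the table, in 21 of 47 other G1/S and replication genes and in 3 of 25 G2/M genes. The CCAAT box, on either strand, was in 20 of the 34, against 39.7% of all genes. The CHR motif TTTGAA, on either strand, was in 2 of the 34, against 18.2% of all genes and 19 of 25 G2/M genes. These matches are a description of letters in a window and not of binding.

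The sequences below are those of 3 members with an E2F motif that were among the lowest in the main comparison. With them are those of 2 members with the motif that were among the highest. The sequences run 5′ to 3′ along the gene, with the motif in capitals. They lie at chr3:127598161-127598460 (plus strand) for MCM2, chr20:33686336-33686635 (minus strand) for E2F1, chr7:100101348-100101647 (minus strand) for MCM7, chrX:24693668-24693967 (plus strand) for POLA1 and chr13:33817899-33818198 (plus strand) for RFC3.
MCM2: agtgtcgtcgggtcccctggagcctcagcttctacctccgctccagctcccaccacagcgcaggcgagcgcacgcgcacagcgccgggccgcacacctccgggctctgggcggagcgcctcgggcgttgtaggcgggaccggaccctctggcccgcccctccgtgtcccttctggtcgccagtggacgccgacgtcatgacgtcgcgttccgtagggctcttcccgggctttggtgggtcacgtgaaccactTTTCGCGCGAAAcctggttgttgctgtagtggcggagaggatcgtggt
E2F1: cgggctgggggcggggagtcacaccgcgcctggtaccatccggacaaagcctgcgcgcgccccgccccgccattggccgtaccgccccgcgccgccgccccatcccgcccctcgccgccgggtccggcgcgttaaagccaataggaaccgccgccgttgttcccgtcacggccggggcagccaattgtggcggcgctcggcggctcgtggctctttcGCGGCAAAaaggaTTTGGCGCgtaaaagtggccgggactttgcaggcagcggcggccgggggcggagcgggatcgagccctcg
MCM7: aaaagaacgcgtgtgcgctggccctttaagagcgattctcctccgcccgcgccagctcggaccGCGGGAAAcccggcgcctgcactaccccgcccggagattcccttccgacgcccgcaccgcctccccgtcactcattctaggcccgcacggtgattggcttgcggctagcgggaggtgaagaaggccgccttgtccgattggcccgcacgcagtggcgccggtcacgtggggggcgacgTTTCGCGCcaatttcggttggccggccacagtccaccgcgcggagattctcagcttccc
POLA1: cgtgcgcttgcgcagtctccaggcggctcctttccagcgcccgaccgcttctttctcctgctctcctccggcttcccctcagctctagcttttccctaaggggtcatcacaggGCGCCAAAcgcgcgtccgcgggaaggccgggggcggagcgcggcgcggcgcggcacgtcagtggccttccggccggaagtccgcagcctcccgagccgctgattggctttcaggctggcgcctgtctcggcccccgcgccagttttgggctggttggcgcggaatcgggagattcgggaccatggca
RFC3: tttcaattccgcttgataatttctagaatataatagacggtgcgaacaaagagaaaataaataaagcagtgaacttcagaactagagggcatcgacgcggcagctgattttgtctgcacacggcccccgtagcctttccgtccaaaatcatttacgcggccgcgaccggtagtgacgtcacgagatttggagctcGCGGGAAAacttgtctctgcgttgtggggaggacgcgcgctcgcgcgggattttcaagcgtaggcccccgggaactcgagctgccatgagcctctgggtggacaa
In MCM2 the form TTTCGCGC occurred on both strands and overlapped itself, which gives 1 block of capitals. E2F1 held TTTGCCGC on the opposite strand and TTTGGCGC on its own. The motif was in 8 of 16 members that were lower, in 2 of 4 that were higher and in 9 of 14 that did not pass. ORC6, which was lower than E2F1 and MCM7, and the higher SLBP and CHAF1B did not hold it and are not shown. MCM7 had 3 promoters in the table, and the one shown is the one with the motif.

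The arrays fell into a set of 3 and a set of 8 by the 24 probe sets of the poly-A spike-ins, which are foreign transcripts mixed into each RNA sample. The high set was the first control, the estradiol and the first E2-BSA array (1.40 to 1.62), and the other 8 lay from -0.56 to 0.10. All values are relative to each probe set's own centre, so no level of a gene, nor of the line's marker genes, can be given. They are taken as log2, although the base is not given, and a difference of 1 is read as a doubling. The labels name no batch. The SD over all genes was 0.37 to 0.39 in the high set and 0.18 to 0.25 in the low set. The values are centred and most arrays are in the low set, so a larger SD in the high set can restate the set difference. The 3′ minus 5′ difference of the actin control was -0.31 to -0.15 against -0.17 to 0.35, and these ranges overlapped. That difference for the GAPDH control was -0.073 to -0.038 against -0.15 to 0.08, and the hybridisation spike-ins were -0.02 to 0.21 against -0.28 to 0.77. The part of these in the results below was not tested.

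The members were mostly lower in the high spike-in set. By limma, with terms for the set and each treatment, 18 of 37 were lower and 5 higher at an adjusted p under 0.05, while 14 did not pass. Over all genes tested, 24.1% were called, 10% lower and 14.1% higher. The median difference of the members was -0.46, and that of all genes was 0.07. In the 3 high arrays, 26 members were below all 8 others and 4 above them, against 16.3% and 13.5% of all genes. The other 7, CHAF1A, CHAF1B, GINS1, GINS3, RFC5, TYMS and CCNE1, overlapped. The 5 members called higher and the 4 above the 8 other arrays are near the shares over all genes. The fitted difference rests on the control and E2-BSA duplicates, each with 1 array in either set. This is because the estradiol, ethanol and BSA arrays have a term of their own. No array shared both its set and its treatment with another. The residual spread behind the SEs and p-values is therefore how far the E2-BSA difference varied among 4 pairs of arrays, given below.

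**Figure D1:**
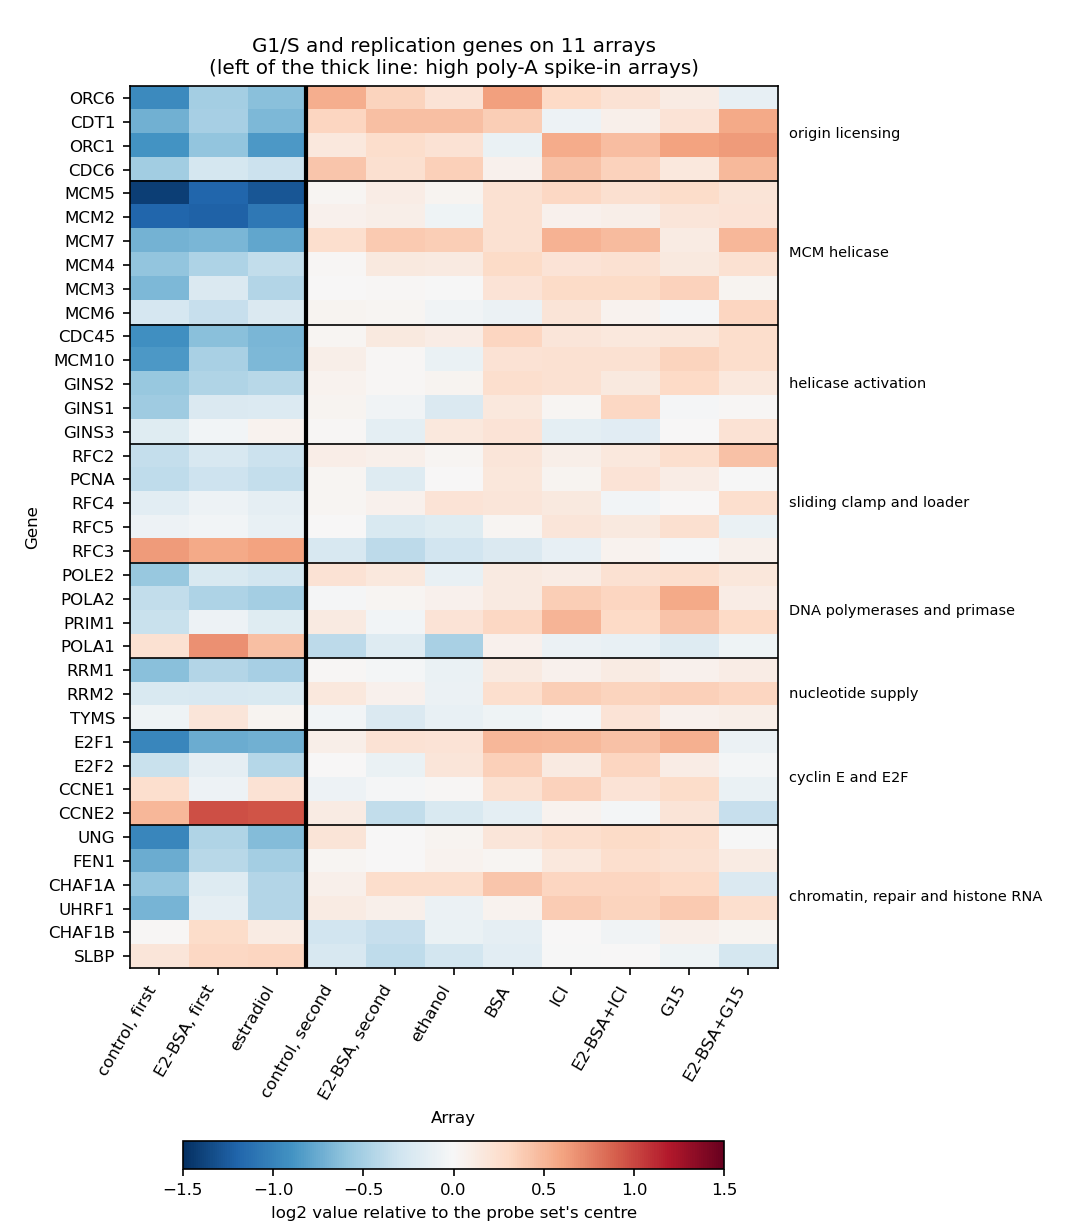
Heat map of the log2 value, relative to the probe set's centre, of each of the 37 genes (rows, grouped by role) on each of the 11 arrays (columns), with the 3 high poly-A spike-in arrays left of the thick line. Of the 37 rows, 26 are below the other 8 arrays in all 3 high arrays and 4 are above them.

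The 4 licensing genes were all lower in the high set. ORC6 and ORC1 are subunits of the origin recognition complex, and CDC6 and CDT1 bring the helicase to it. ORC6 was -0.95 in the first control, -0.62 in the estradiol and -0.51 in the first E2-BSA array, and between -0.12 and 0.62, median 0.25, in the other 8. The sets were clearly separated, and the fitted difference was -1.17 ± 0.17 (SE, adjusted p = 0.00253). CDT1 stood at -0.72, -0.67 and -0.49 in the same 3 arrays and between -0.075 and 0.56, median 0.34, in the other 8, a difference of -0.99 ± 0.11 (SE, adjusted p = 0.000881). For ORC1 the 3 values were -0.89, -0.86 and -0.59, the other 8 lay between -0.10 and 0.64, median 0.36, and the difference was -0.95 ± 0.12 (SE, adjusted p = 0.00155). CDC6, the smallest of the 4, was at -0.52, -0.32 and -0.26 against a range of 0.061 to 0.49 (median 0.35), and differed by -0.71 ± 0.15 (SE, adjusted p = 0.0135). In none of the 4 did the sets overlap.

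The helicase subunits MCM2 to MCM7 form the ring that unwinds DNA, and all 6 estimates were below 0, 4 of them past the threshold. MCM5 differed most of all members. It was -1.41 in the first control, -1.28 in the estradiol and -1.19 in the first E2-BSA array, and between 0.025 and 0.31, median 0.21, in the other 8, a fitted difference of -1.37 ± 0.15 (SE, adjusted p = 0.000881). MCM2 was similar, at -1.19, -1.07 and -1.21 in the 3 high arrays and between -0.061 and 0.23, median 0.083, in the other 8, with a difference of -1.27 ± 0.14 (SE, adjusted p = 0.000985). Both subunits were thus separated by more than the whole range of the 8 low arrays. MCM7 stood at -0.71, -0.78 and -0.69 and between 0.12 and 0.52, median 0.38, in the other 8, and differed by -1.02 ± 0.13 (SE, adjusted p = 0.00144). MCM4 stood at -0.59, -0.37 and -0.46 and between 0.017 and 0.29, median 0.18, in the other 8, and differed by -0.61 ± 0.10 (SE, adjusted p = 0.00398). MCM3 (-0.46 ± 0.17 SE, adjusted p = 0.0837) and MCM6 (-0.34 ± 0.14 SE, adjusted p = 0.111) did not pass. In both, the 3 high arrays still lay below the other 8.

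Of the 5 genes that activate the helicase, CDC45, MCM10 and GINS2 were lower and GINS1 and GINS3 did not pass. CDC45, the helicase cofactor, was -0.92 in the first control, -0.69 in the estradiol and -0.63 in the first E2-BSA array, and between 0.025 and 0.32, median 0.16, in the other 8, a difference of -0.86 ± 0.11 (SE, adjusted p = 0.0017). MCM10, a scaffold of the active fork, was at -0.86, -0.67 and -0.49 and between -0.10 and 0.33, median 0.22, in the other 8, a difference of -0.73 ± 0.14 (SE, adjusted p = 0.00723). GINS2, a subunit of the GINS complex, was at -0.57, -0.42 and -0.45 and between 0.020 and 0.30, median 0.15, in the other 8, and differed by -0.55 ± 0.11 (SE, adjusted p = 0.00866). Its partner subunits had estimates of -0.37 ± 0.13 (SE, adjusted p = 0.0742) for GINS1 and -0.049 ± 0.12 (SE, adjusted p = 0.802) for GINS3, and both overlapped between the sets.

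The clamp and its loader did not move one way. RFC3, a loader subunit, was higher, at 0.63, 0.60 and 0.57 in the high arrays and between -0.39 and 0.072, median -0.17, in the other 8, a difference of 0.92 ± 0.12 (SE, adjusted p = 0.00164), the highest of the members. Only 1 of the 3 RFC3 probe sets passed, as given below. RFC2, another subunit, was lower, at -0.36, -0.32 and -0.24 and between 0.029 and 0.44, median 0.13, in the other 8, with -0.39 ± 0.11 (SE, adjusted p = 0.0323). PCNA, the clamp, was at -0.38, -0.36 and -0.31 in the 3 arrays, below the range of -0.19 to 0.21 in the 8, but did not pass (-0.27 ± 0.12 SE, adjusted p = 0.164). Neither did RFC4 (-0.16 ± 0.13 SE, adjusted p = 0.387) or RFC5 (0.052 ± 0.12 SE, adjusted p = 0.793).

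Among the polymerase genes 1 was lower, 1 was higher and 2 did not pass. POLE2, the second subunit of the leading-strand polymerase epsilon, was -0.57 in the first control, -0.28 in the estradiol and -0.23 in the first E2-BSA array, and between -0.11 and 0.26, median 0.16, in the other 8, a difference of -0.58 ± 0.13 (SE, adjusted p = 0.0156). POLA1, the catalytic subunit of the priming polymerase alpha, was at 0.22, 0.45 and 0.69 and between -0.48 and 0.061, median -0.15, in the other 8, a difference of 0.75 ± 0.13 (SE, adjusted p = 0.00531). Its partner subunit POLA2 had an estimate of opposite sign, -0.42 ± 0.14 (SE, adjusted p = 0.0604). PRIM1, the primase that makes the RNA primer, was at -0.26 ± 0.15 (SE, adjusted p = 0.242). In both POLA2 and PRIM1, as in POLE2, the 3 high arrays lay below the 8 others.

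Of the nucleotide genes, both subunits of ribonucleotide reductase were lower. RRM1, the large subunit, was at -0.63, -0.50 and -0.44 in the high set and between -0.10 and 0.13, median 0.060, in the other 8, a difference of -0.53 ± 0.11 (SE, adjusted p = 0.0113). RRM2, the small subunit, was at -0.23, -0.22 and -0.24 and between -0.087 and 0.37, median 0.29, in the other 8, and its difference of -0.35 ± 0.11 (SE, adjusted p = 0.0495) lay at the edge of the threshold. TYMS, thymidylate synthase, overlapped between the sets and had an estimate of 0.19 ± 0.13 (SE, adjusted p = 0.337).

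E2F1, the transcription factor, was lower and the cyclin gene CCNE2 was higher. E2F1 was -0.98 in the first control, -0.72 in the estradiol and -0.75 in the first E2-BSA array, and between -0.090 and 0.54, median 0.33, in the other 8, a difference of -1.02 ± 0.19 (SE, adjusted p = 0.00776). CCNE2 was at 0.50, 0.95 and 0.97 and between -0.37 and 0.20, median -0.088, in the other 8, a difference of 0.86 ± 0.23 (SE, adjusted p = 0.0317). These are means of 2 probe sets with differences of opposite sign, 2.31 and -0.59, so they describe neither. E2F2, a second activating E2F, was at -0.18 ± 0.13 (SE, adjusted p = 0.328), with its high arrays below the other 8. CCNE1, the second E-type cyclin, was at 0.13 ± 0.14 (SE, adjusted p = 0.53) and overlapped.

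In the group of chromatin, repair and histone RNA genes, UNG and FEN1 were lower, and SLBP and CHAF1B higher. UNG, which removes uracil from DNA, was -0.97 in the first control, -0.65 in the estradiol and -0.45 in the first E2-BSA array, and between -0.0008 and 0.28, median 0.19, in the other 8, a difference of -0.81 ± 0.18 (SE, adjusted p = 0.0161). FEN1, the flap nuclease of lagging-strand maturation, was at -0.74, -0.51 and -0.41 and between 0.0084 and 0.25, median 0.085, in the other 8, a difference of -0.60 ± 0.13 (SE, adjusted p = 0.0133). SLBP, which binds the stem-loop of histone mRNA, was at 0.18, 0.32 and 0.31 and between -0.38 and 0.0082, median -0.20, in the other 8, a difference of 0.56 ± 0.12 (SE, adjusted p = 0.0116). CHAF1B and CHAF1A are subunits of the chromatin assembly factor that loads histones on new DNA, and their estimates had opposite signs. CHAF1B was at 0.016, 0.12 and 0.27 and between -0.35 and 0.080, median -0.077, in the other 8, a difference of 0.46 ± 0.12 (SE, adjusted p = 0.0252) and its ranges overlapped. CHAF1A (-0.56 ± 0.20 SE, adjusted p = 0.0771) and UHRF1, which reads hemimethylated DNA (-0.52 ± 0.17 SE, adjusted p = 0.066), did not pass.

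**Figure D2:**
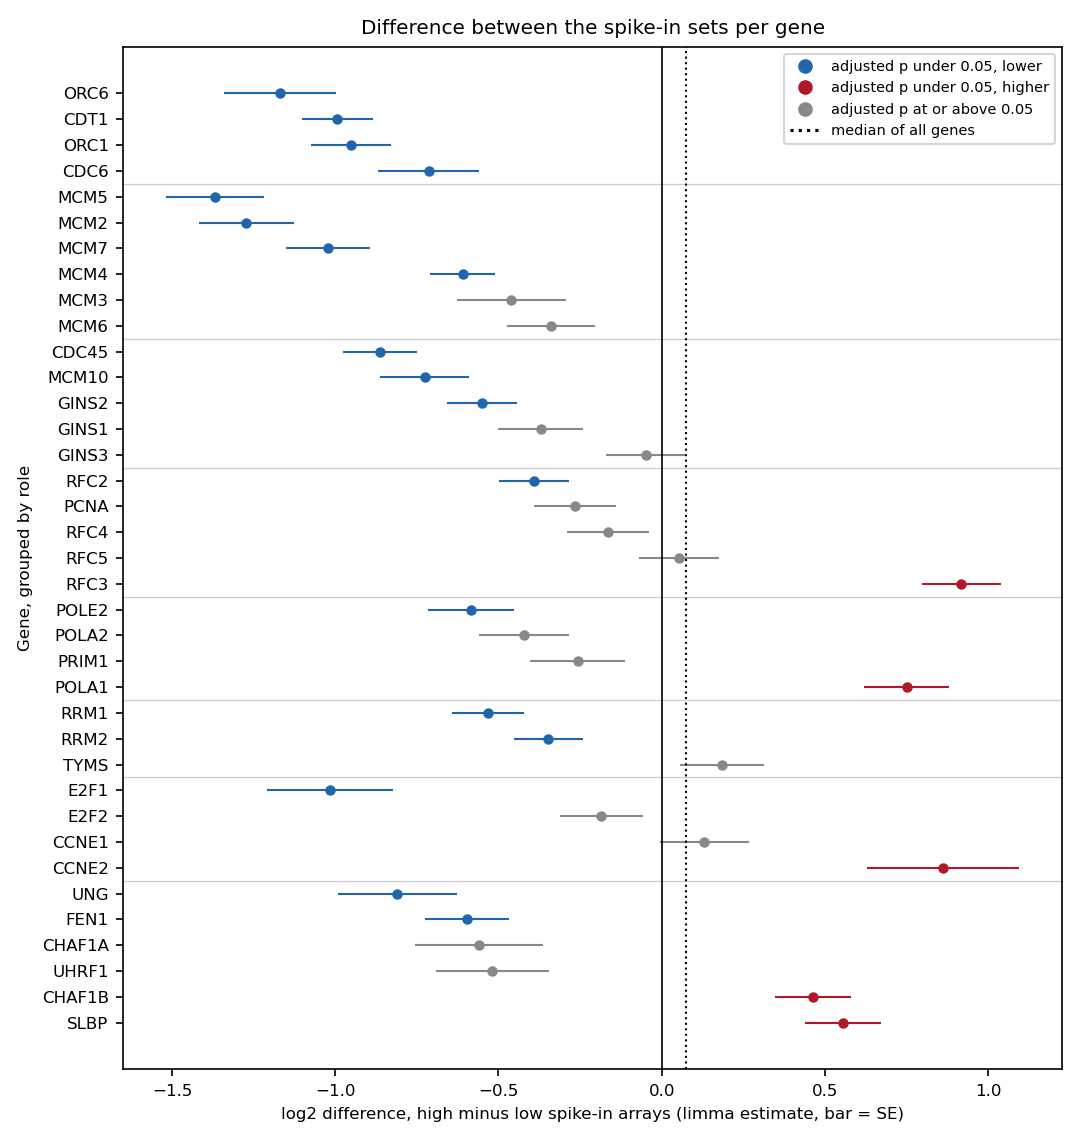
The estimated log2 difference of each gene between the high and the low spike-in arrays (point, with its SE as the bar), grouped by role, with genes that passed at an adjusted p under 0.05 coloured and the median of all genes dotted. The 18 lower genes reach -1.37 (MCM5), the 5 higher reach 0.92 (RFC3) and the median of all genes is 0.07. The higher points of RFC3 and CCNE2 are means over probe sets that disagreed.

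The number of called members changed with single arrays. With 1 duplicate array left out, limma called 14 of the members without the first control (16.2% of all genes), 10 without the second control (8.74%), 21 without the first E2-BSA (18.3%) and 9 without the second E2-BSA array (6.74%). A group left with 1 array was assumed to vary like the others. In each of these 4 fits all 23 called members kept their sign, and 8 were called in all of them (5.77% of all genes): CDC45, CDT1, MCM2, MCM5, MCM7, ORC1, ORC6 and RFC3. The 3 high arrays were not alike. The first control was the lowest of all 11 arrays in 23 members, the estradiol array in 3 and the first E2-BSA array in 3. Over all genes the first control was lowest in 12.7%. That share is not a like base, since 29 of 37 members but 7848 of 19775 genes had estimates below 0 between the sets.

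Probe sets of the same gene disagreed for some members. Of the 5 higher members only CCNE2 and RFC3 have more than 1 probe set, and both disagreed; POLA1, SLBP and CHAF1B have 1 each and could not be checked in this way. CCNE2 has 2 probe sets, of which 211814_s_at differed by 2.31 ± 0.30 (SE, adjusted p = 0.00233 by limma over 41091 probe sets) and 205034_at by -0.59 ± 0.22 (adjusted p = 0.103). With the probe sets named _x_at, _s_at or _a_at left out, which may match more than one transcript, CCNE2 was therefore at -0.59 (adjusted p = 0.0783). RFC3 has 3 probe sets. Only 204128_s_at passed, at 2.53 (adjusted p = 0.00119), while 204127_at was at 0.35 and 231119_at at -0.13. The higher call of RFC3 thus comes from 1 of its probe sets, and that of CCNE2 from 1 as well. At this level 21.6% of all probe sets were called, 12.2% higher and 9.36% lower.

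RFC5, which did not pass as a gene, passed in both directions, at 0.89 in 203210_s_at (adjusted p = 0.00439) and at -1.09 in 213734_at (adjusted p = 0.0157). RRM1 passed as lower through 201477_s_at (-1.21), and its second probe set was at 0.15. TYMS had 1 probe set of 3 that passed, at 0.64 (adjusted p = 0.0231). In MCM10 the set 222962_s_at was at -1.70 and the other 2 at -0.22 and -0.26. Against that, both probe sets of MCM5 (-1.30 and -1.44), of MCM7 (-0.89 and -1.16), of E2F1 (-1.10 and -0.93) and of CDT1 (-1.28 and -0.70) passed on the same side. By these fitted differences 8 members had probe sets of opposite sign. In GINS3 they were less than 0.5 apart, and in the other 7, CCNE2, E2F2, POLA2, RFC3, RFC5, RRM1 and TYMS, more. With the suffixed probe sets left out, 14 of the 23 called members could still be tested, and 10 of them passed. CDC45, CDT1, FEN1, MCM2, MCM7, ORC6, RRM1, SLBP and UNG have only suffixed probe sets and were not tested in this way.

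**Figure D3:**
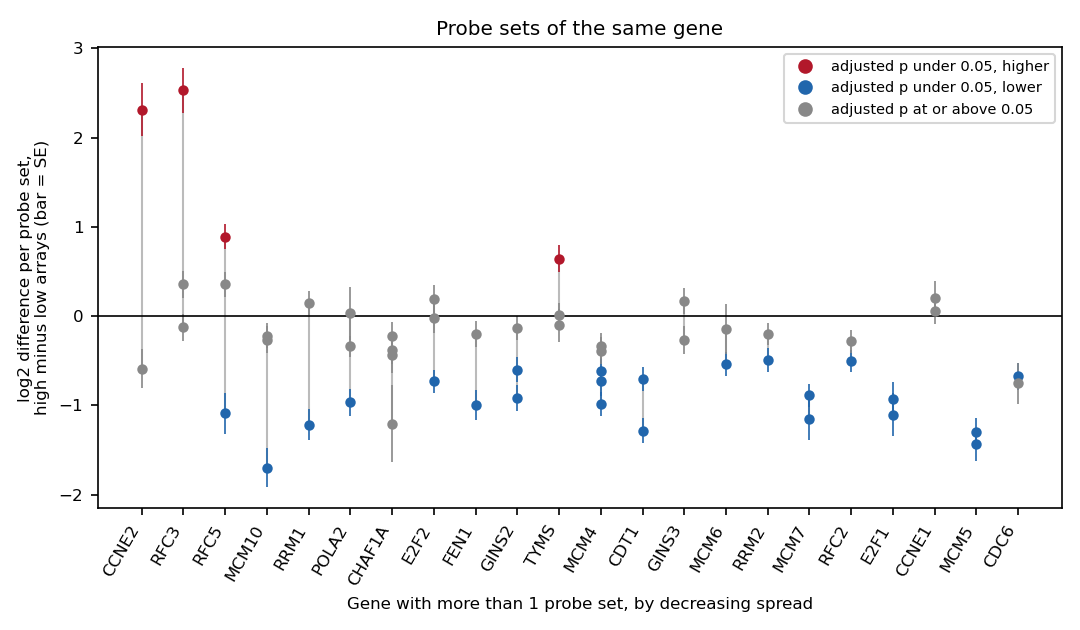
The log2 difference between the spike-in sets for each probe set (point, SE as bar) of the 22 genes that have more than 1, ordered by the spread within the gene, with probe sets at an adjusted p under 0.05 coloured. CCNE2 and RFC3 spread most, from -0.59 to 2.31 and from -0.13 to 2.53, while the points of MCM5 lie at -1.30 and -1.44.

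Among genes of the same pathway outside the 37 more were lower than higher. A list of 60 other G1/S and replication genes was also chosen with earlier results of these data known. Of these, 57 were measured, 21 were lower and 7 higher by limma, and the median was -0.27. HELLS, a chromatin remodeller, was lowest at -1.47 ± 0.19 (SE), followed by its partner CDCA7 at -1.36 ± 0.15 and POLD1, the catalytic subunit of polymerase delta, at -1.35 ± 0.17. Thymidine kinase TK1 (-1.30 ± 0.15), polymerase epsilon POLE (-1.29 ± 0.16) and the factor E2F3 (-1.03 ± 0.12) were lower as well. On the other side were DONSON, a replisome component, at 0.92 ± 0.14, and the origin recognition subunits ORC3 at 0.75 ± 0.14 and ORC4 at 0.64 ± 0.15. CDKN1A, which encodes the cyclin-dependent kinase inhibitor p21, was higher by 0.50 ± 0.12. Of 30 G2/M genes, 8 were lower and 0 higher, with 17 at an unadjusted p under 0.05, and the median was -0.34. Over all genes 10% were called lower and 14.1% higher by limma, and 7338 of 19775 had an unadjusted p under 0.05. The 7 higher genes among the 57 are thus near the share over all genes.

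**Figure D4:**
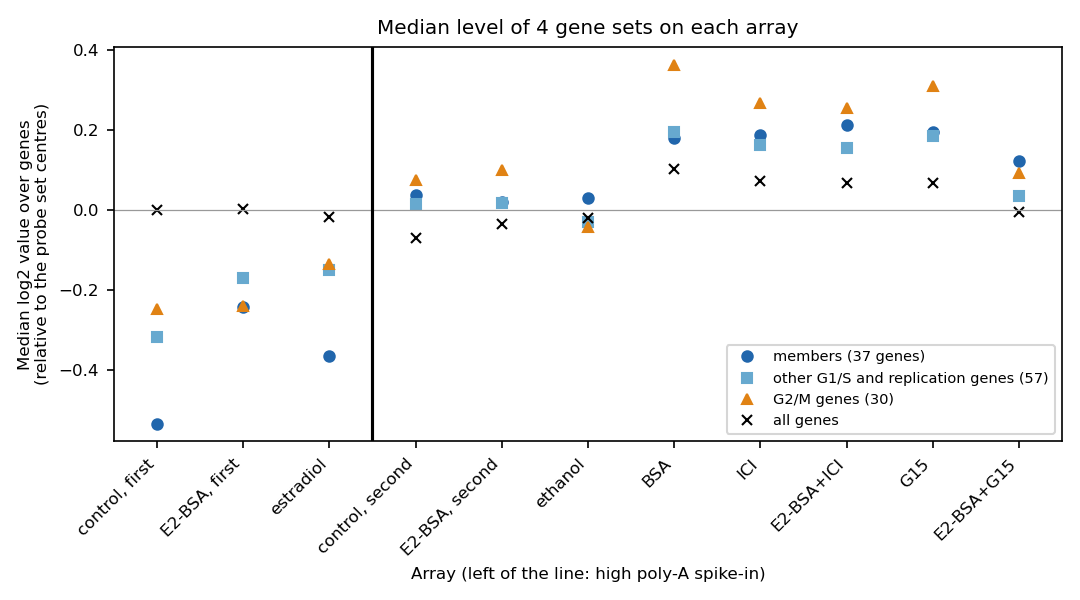
The median log2 value per array of the 37 members, of 57 other G1/S and replication genes, of 30 G2/M genes and of all genes, with the high poly-A spike-in arrays left of the line. The members' medians are -0.53 to -0.24 in the 3 high arrays and 0.02 to 0.21 in the other 8.

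Treatments were then compared within the sets. By limma none of the 37 members passed for E2-BSA, ICI, G15, estradiol, ethanol or BSA, the same fit that called 23 between the sets. For E2-BSA, ICI, G15 and estradiol 0 of all genes were called (0%), with 927, 3219, 2042 and 1397 genes at an unadjusted p under 0.05, of which 1, 7, 6 and 0 were members. For ethanol 17 genes (0.086%) and for BSA 70 (0.354%) were called, with 0 and 2 members at an unadjusted p under 0.05. The median gene was shifted by 0.14 with ICI, 0.10 with G15 and 0.17 with BSA, and the members' median relative to it was 0.037, 0.031 and -0.0081. For E2-BSA, estradiol and ethanol that relative median was 0.05, 0.06 and -0.02. These medians moved with single arrays. Without the first control the estradiol one was -0.07, with 10 members higher in place of 27, and the E2-BSA one was 0.0020, with 16 higher in place of 26. The E2-BSA value was the same without the first E2-BSA array. With each duplicate left out in turn the relative median ran from 0.0020 to 0.10 for E2-BSA, -0.07 to 0.15 for estradiol, -0.02 to 0.11 for ICI, -0.01 to 0.11 for G15, -0.07 to 0.07 for ethanol and -0.07 to 0.06 for BSA.

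E2-BSA gave small estimates in all members. The highest was CDT1 at 0.22 ± 0.077 (SE, adjusted p = 0.903), before POLA1 at 0.20 ± 0.092 (SE, adjusted p = 0.903) and GINS1 at 0.14 ± 0.091 (SE, adjusted p = 0.903). The lowest were CCNE1 at -0.19 ± 0.10 (SE, adjusted p = 0.903), CCNE2 at -0.16 ± 0.17 (SE, adjusted p = 0.918) and RFC5 at -0.14 ± 0.087 (SE, adjusted p = 0.903). E2-BSA was present or absent in 4 pairs of arrays that share none: the first arrays, the second arrays, and the pairs with ICI and with G15. The members' median difference was 0.22 in the first arrays, where 31 of 37 were higher (49.4% of all genes were), and -0.043, -0.029 and -0.071 in the second arrays and the pairs with ICI and G15. In those, 14, 14 and 16 members were higher, against 57.7%, 46.8% and 34.7% of all genes, whose medians were 0.026, -0.012 and -0.080. MCM4 and CDT1 were higher in all 4 pairs (5.14% of all genes) and RRM2 was lower in all 4 (8.29%). Within the low set no member separated the 3 arrays with E2-BSA from the 5 without, downwards (0.89% of all genes) or upwards (0.521%).

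A term for a different E2-BSA difference in the high set had a median of 0.23 over the members, and 7 of them had an unadjusted p under 0.05. None passed over all genes, where 0 were called and 1866 had an unadjusted p under 0.05. The smallest adjusted p among the members was 0.338. Free estradiol against the first control also gave a higher median, 0.15 above that of all genes, with 31 of 37 members higher. It shares that control with the first E2-BSA pair, and the first control was the array lowest in 23 members. In the fit its highest estimates were GINS1 (0.24 ± 0.16 SE, adjusted p = 0.911), MCM4 (0.21 ± 0.13 SE, adjusted p = 0.86) and GINS3 (0.18 ± 0.15 SE, adjusted p = 0.962). Its lowest were E2F2 (-0.17 ± 0.16 SE, adjusted p = 0.98), POLA2 (-0.16 ± 0.18 SE, adjusted p = 0.999) and RFC5 (-0.13 ± 0.16 SE, adjusted p = 0.999).

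With ICI, CDT1 was the member with the lowest estimate, -0.39 ± 0.11 (SE, adjusted p = 0.279). Its value was -0.075 with ICI and 0.077 with E2-BSA and ICI, and it ranged from 0.21 to 0.56 in the 6 other low arrays. It was the only member below all 6 in both ICI arrays (1.77% of all genes were), and its estimate turned to 0.11 in a fit with no term for the sets. Of its probe sets 209832_s_at separated in this way. The other, 228868_x_at, did not, at 0.025 and -0.023 in the ICI arrays and -0.083 with BSA. SLBP was the only member above all 6 in both ICI arrays (7.49%). ORC6 (-0.18 ± 0.17 SE, adjusted p = 0.566) and GINS3 (-0.092 ± 0.12 SE, adjusted p = 0.686) had the next lowest estimates. The highest were PRIM1 (0.36 ± 0.15 SE, adjusted p = 0.296), POLA2 (0.34 ± 0.14 SE, adjusted p = 0.296) and CCNE1 (0.32 ± 0.14 SE, adjusted p = 0.306).

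With G15 the lowest estimate was that of ORC6, -0.44 ± 0.17 (SE, adjusted p = 0.482). Its value was 0.12 with G15 and -0.12 with E2-BSA and G15, and 0.20 to 0.62 in the 6 other low arrays. It was the only member below all 6 (1.43% of all genes), and its estimate turned to 0.15 with no term for the sets. MCM10, ORC1, RFC2 and CHAF1B were above them (3.58%). ORC1 (0.41 ± 0.12 SE, adjusted p = 0.482), CHAF1B (0.38 ± 0.12 SE, adjusted p = 0.482) and RFC3 (0.34 ± 0.12 SE, adjusted p = 0.482) had the highest estimates. CHAF1A (-0.13 ± 0.20 SE, adjusted p = 0.791) and MCM7 (-0.018 ± 0.13 SE, adjusted p = 0.965) followed ORC6 at the low end.

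The estradiol, ethanol and BSA arrays are 1 each and have no replicate check. With BSA the members spread from ORC1 at -0.27 ± 0.16 (SE, adjusted p = 0.413), CDC6 at -0.23 ± 0.20 (SE, adjusted p = 0.56) and MCM6 at -0.12 ± 0.17 (SE, adjusted p = 0.74) to E2F1 at 0.31 ± 0.25 (SE, adjusted p = 0.528), E2F2 at 0.42 ± 0.16 (SE, adjusted p = 0.277) and POLA1 at 0.45 ± 0.17 (SE, adjusted p = 0.272). With ethanol POLE2 (-0.25 ± 0.17 SE, adjusted p = 0.91), ORC6 (-0.25 ± 0.22 SE, adjusted p = 0.95) and RRM2 (-0.22 ± 0.14 SE, adjusted p = 0.901) were at the low end. CHAF1B (0.23 ± 0.15 SE, adjusted p = 0.909), GINS3 (0.24 ± 0.15 SE, adjusted p = 0.909) and E2F2 (0.24 ± 0.16 SE, adjusted p = 0.909) were at the high end.

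Single arrays were also set against the control of their own spike-in set, with the median gene subtracted and no test. A difference past 0.5 was seen in 8 cases among the 9 arrays. In the first E2-BSA array UNG and UHRF1 were above (7% of all genes were past 0.5 in either direction), and in the second CCNE2 was below (0.602%). CDT1 was below with ICI (2.62%), ORC6 with G15 (2.8%), ORC6 and CCNE2 with E2-BSA and G15 (4.91%), and CDC6 with BSA (4.4%). No member was past 0.5 with ethanol (3.39%), estradiol (4.93%) or E2-BSA and ICI (3.19%).

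**Figure D5:**
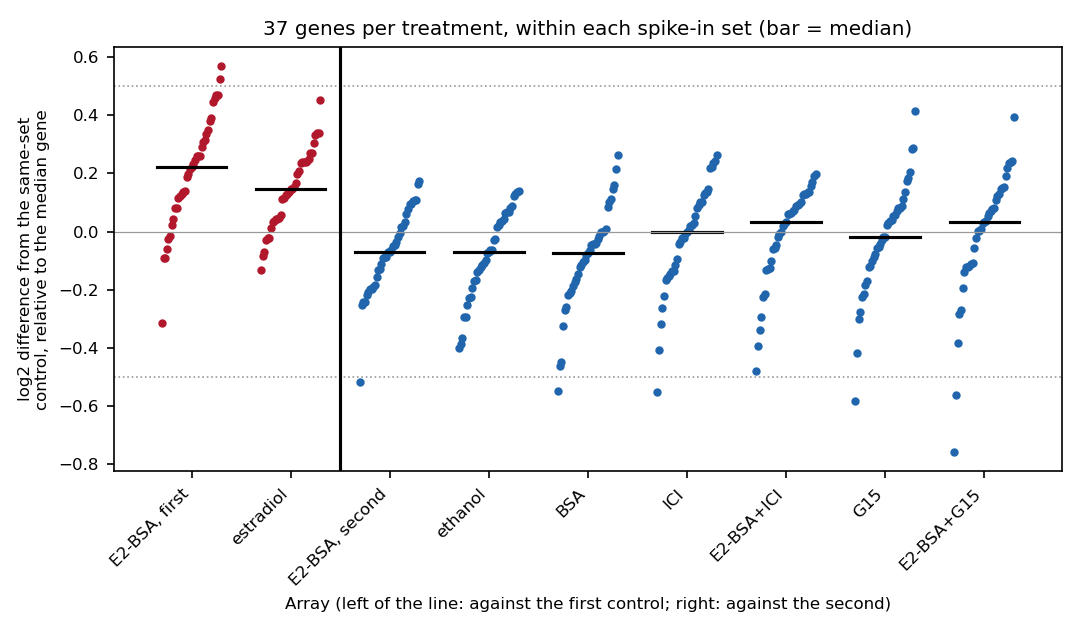
The log2 difference of each of the 37 genes (points, sorted) from the control array of the same spike-in set, minus the median gene, for the 9 other arrays, with the members' median as a bar and dotted lines at 0.5 and -0.5. The bars of the first E2-BSA and the estradiol array lie at 0.22 and 0.15, and those of the 7 arrays set against the second control between -0.07 and 0.03.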

How the data were processed

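The authors deposited 1 table of log values for 54675 probe sets on 11 arrays. Summarisation, normalization and log base are not given in the sources used here, and base 2 was assumed. In 27864 probe sets (50.963%) the values nearest 0 on either side mirrored each other within 1e-05, so the deposited log2 values were taken as centred per probe set, by a centre that is not given and is not the median of these 11 arrays, and hold no level or background.

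By the platform's annotation 41091 probe sets had 1 symbol, 1801 several, 11721 none, and 62 were Affymetrix controls. Values were averaged to 19775 genes. No filter on dim probes and no normalization between arrays was applied.

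The tests used limma 3.58.1 (R 4.3.3; Python 3.11.15 with pandas 2.3.3 for summaries), with a prior variance trend and all 11 arrays. Terms were the spike-in set (split at the largest gap, 1.30, the next being 0.39), E2-BSA, ICI, G15, estradiol, ethanol and BSA. This left 3 residual degrees of freedom. These hold the variation of the E2-BSA difference among its 4 pairs of arrays, which would include any effect of ICI or G15 on it. Benjamini-Hochberg adjustment ran over all genes at 0.05. Members that passed, and the 5 highest and 5 lowest between sets or 3 per treatment, are named with values. The members and lists were chosen with earlier results of these data known.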

Additional observations from a re-analysis of the deposited data

How the results depend on the processing

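The alternatives tried were array medians subtracted, quantile normalization, no variance trend, other probe set choices, single arrays left out, and 2 sets without treatment terms. An equalised spread and an E2-BSA by set term were added after the data were seen. With the suffixed probe sets left out only 14 of the 23 called members could be tested. In all alternatives the called members that could be tested kept their direction, except CCNE2 with the suffixed probe sets left out. Their number did not: 10 were called with those probe sets left out, and 9 to 21 with 1 duplicate left out. Over all genes 4772 were called between the sets, 7188 with 2 sets only and 1332 to 3610 with 1 duplicate left out. For ethanol the 17 genes became 0 with no set term, 36 after quantile normalization (29 higher and 7 lower, against 17 and 0), 10 with the suffixed probe sets left out, 4 with the most variable probe set and 0 to 15 with 1 duplicate left out. For BSA the 70 genes became 5 with no set term, 163 with the most variable probe set and 4 to 58 with 1 duplicate left out; with array medians subtracted the split was 15 higher and 57 lower, against 25 and 45. With the E2F forms TTTCGCGC and TTTGGCGC alone, 12 members held the motif. The fit to probe sets that were not averaged was also added after the data were seen, and in it CCNE2, RFC3 and RRM1 each had a probe set of opposite sign. The causes were not tested.

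Over all members and comparisons, 62 of 222 estimates had the opposite sign with no set term, 52 of 259 after quantile normalization and 21 to 32 of 259 with 1 duplicate left out, nearly all of them treatment estimates. Between the sets at most 3 of the members tested changed sign in any alternative, CCNE2 alone among the called. The values of the genes named with values follow. With 1 duplicate left out the estimate between the sets ran from -0.18 to 0.09 for GINS3, -0.07 to 0.17 for RFC5 and -0.04 to 0.30 for CCNE1, and with ICI from -0.23 to 0.04 for GINS3. Between the sets, RFC5 was at -0.0011 with array medians subtracted, -0.37 with the suffixed probe sets left out, -1.09 with its most variable probe set, -0.068 and -0.0077 without the first and second E2-BSA array, and -0.090 with 2 sets only. Without suffixed probe sets TYMS was at -0.043 and CCNE2 at -0.59. GINS3 was at 0.016 and 0.086 without the first and second control, and CCNE1 at -0.037 without the second. With no set term, the ICI estimates were 0.11 for CDT1 and 0.40 for ORC6, and those of G15 were 0.49 for MCM7, 0.15 for ORC6, -0.12 for RFC3 and 0.15 for CHAF1A. MCM4 with estradiol was then at -0.10, ORC6, POLE2 and CHAF1B with ethanol at 0.34, 0.043 and -0.0049, and MCM6, CDC6 and ORC1 with BSA at 0.054, 0.13 and 0.21. GINS3 with ICI was at 0.043 without the second control, and with the most variable probe set POLA2 with estradiol was at 0.087 and MCM6 with BSA at 0.064.

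The labels mark 1 control and 1 E2-BSA array as second, which does not state a pairing. In a fit to these 4 arrays the replicate block left 0 members and 0 genes called for E2-BSA, as did the fit without it. Over all genes the deviations of same-numbered arrays correlated at 0.814 (2 pairs). In these arrays the number coincides with the spike-in set, so the correlation cannot tell a pairing from the difference between the sets. The values are centred, so signal over background is unknown and members near background could not be set apart.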
